A study of Mus musculus with 10 samples.

Results

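The 10 subunits of the BAF (SWI/SNF) chromatin remodelling complex that are exchanged, or thought to be rebalanced, when neural progenitors become neurons were examined in cells sorted from *Grem1* reporter embryos. The members are set by the known biology of the complex and by no measured value, although earlier results of these libraries were known when they were chosen. They are the progenitor-associated subunits *Actl6a*, *Phf10*, *Dpf2* and *Ss18*, the neuronal subunits *Actl6b*, *Dpf1*, *Dpf3* and *Ss18l1*, and the ATPases *Smarca4* and *Smarca2*, which make 10 of the 14300 genes counted. All 10 were in the table and passed the count filter.

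Embryos were *Grem1creERT; Rosa26LSLTdtomato* on a c57bl/6j background, and both sorted populations carried the same alleles and the same tamoxifen treatment, given 24 h before collection. In this line *Grem1* drives a tamoxifen-inducible Cre recombinase, so TdTomato+ cells are those in which Cre was active at the time of tamoxifen and the progeny of these cells. TdTomato− cells are all other live cells of the sorted tissue, which the labels call brain and the study's methods the dorsal telencephalon. There were 5 TdTomato+ and 5 TdTomato− libraries, 1 of each from mice numbered 2 to 6, and whether a number stands for 1 embryo or for pooled littermates was not given in the sources used here. Total counts were 23429034 to 27286180 per library.

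BAF complexes use the energy of ATP to move nucleosomes and so open chromatin at promoters and enhancers. In dividing neural progenitors the complex holds the actin-related protein ACTL6A (BAF53A), one of the plant homeodomain proteins PHF10 (BAF45A) or DPF2 (BAF45D), and SS18, and in postmitotic neurons these give way to ACTL6B (BAF53B), DPF1 (BAF45B) or DPF3 (BAF45C), and SS18L1 (CREST). The exchange of ACTL6A for ACTL6B is known to need miR-124 and miR-9*, the 3′ strand of the miR-9 hairpin, which act on the 3′ untranslated region of *Actl6a* mRNA and are themselves repressed outside neurons by the zinc finger protein REST.

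Promoters of 9 members were matched in the RefSeq table of GRCm38.p6 (250 bases before to 50 bases after the start of the gene). *Ss18* was not in that table. The pair that gives the exchange its best known example is printed here 5′ to 3′, because *Actl6b* was the only one of the 9 searched windows with both parts of the element that REST is known to bind. *Actl6a* lies at chr3:32706298-32726973 on the plus strand and its RefSeq window, chr3:32708296-32708595, begins inside the span of the annotated gene. *Actl6b* lies at chr5:137553517-137569582 on the plus strand and its window is chr5:137553296-137553595. In *Actl6a* the capitals mark the GC box GGCGGG read on the minus strand, and in *Actl6b* they mark, also on the minus strand, the letters GGACAG (right part) and TCAGCACC (left part) of RE1, the element that REST binds.
Actl6a: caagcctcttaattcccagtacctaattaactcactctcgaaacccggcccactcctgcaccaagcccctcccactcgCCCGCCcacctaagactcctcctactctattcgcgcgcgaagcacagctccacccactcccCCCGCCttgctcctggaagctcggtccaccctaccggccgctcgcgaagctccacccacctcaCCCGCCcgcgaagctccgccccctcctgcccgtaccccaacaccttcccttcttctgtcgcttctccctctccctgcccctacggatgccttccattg
Actl6b: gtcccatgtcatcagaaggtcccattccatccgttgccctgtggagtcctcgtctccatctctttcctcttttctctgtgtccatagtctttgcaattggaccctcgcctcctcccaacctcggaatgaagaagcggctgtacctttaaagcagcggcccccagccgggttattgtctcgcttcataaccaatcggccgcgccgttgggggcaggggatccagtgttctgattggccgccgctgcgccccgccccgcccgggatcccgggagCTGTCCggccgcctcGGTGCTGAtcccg
Both RE1 parts of *Actl6b* lie 23 and 38 bases after the start and are 9 bases apart. Both strands were searched for each motif. The left part TCAGCACC was found in 1.65% of all 32851 promoters and the right part GGACAG in 22.2%, and both within 12 bases of each other, a distance set after the *Actl6b* sequence had been seen, in 23 promoters or 0.07%. Among the members, *Actl6b* held both parts, *Dpf2* held the right part only, and the other 7 searched held neither. The GC box GGCGGG was found in 2 of 3 promoters of progenitor subunits, 4 of 4 of neuronal subunits and 1 of 2 of ATPases, against 35.3% of all promoters. CCAAT was found in 1 of 3, 3 of 4 and 0 of 2, against 37.4%. The members' windows had a median GC content of 65.7% and 29 CpG dinucleotides, against 52.7% and 7 over all promoters. Both GC boxes of *Actl6b* overlap each other, as do some of those of *Ss18l1* and *Phf10*, and no match in a member shared bases with a match to another motif. A match describes letters and not bound protein.

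The mature miR-9 strands are printed with the seed, bases 2 to 8, in capitals, because the 3p strand is the one known to act on *Actl6a*. The mature miR-124 sequence is not printed here.
miR-9-3p: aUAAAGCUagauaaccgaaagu
miR-9-5p: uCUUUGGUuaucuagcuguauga
The letters complementary to the miR-9-3p seed, AGCTTTA, occurred once in the 3′ untranslated region of *Actl6a*, which is 371 bases long in the transcript read, and once in that of *Smarca2*, which is 951 bases long. The *Actl6a* match begins at base 38 of the region, in chr3:32726628-32726657 on the plus strand, and the *Smarca2* match at base 132, in chr19:26777490-26777519 on the plus strand. The match is in capitals.
Actl6a site: ctcaacgtctgtAGCTTTAgtacactcagg
Smarca2 site: tcatctagaactAGCTTTAgggtagtgcca
The other 8 members had no such match, and none of the 10 had one for the miR-9-5p seed, ACCAAAG. The first of these motifs, AGCTTTA, was found in 13.4% of 12778 annotated 3′ untranslated regions, and in 2.37% of the 886 whose length was within 20% of that of *Actl6a*. ACCAAAG was found in 14.4%. The libraries hold polyadenylated RNA, so mature miRNAs were not measured.

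The 4 progenitor subunits were all lower and the 4 neuronal subunits all higher in TdTomato+ than in TdTomato− cells at an adjusted p of 0.05 or less (edgeR quasi-likelihood test with mouse as a block, Benjamini-Hochberg adjustment over 14300 genes). Of all genes, 39.4% were lower and 37.9% higher by this rule, so a call alone sets few genes apart. With a log2 fold change of at least 1 as well, 1 of the 4 progenitor subunits was lower (*Actl6a*) and 2 of the 4 neuronal subunits were higher (*Actl6b* and *Dpf3*), where 16.4% and 12.1% of all genes were. No progenitor subunit was lower by 2, as 9.74% of all genes were. The median log2 fold change was −0.62 for the progenitor subunits, 1.16 for the neuronal subunits and −0.01 over all genes. Each of the 10 members changed in the same direction in 5 of 5 mice, by as little as 0.036 (log2) for *Smarca4* in mouse 5. The share of all genes that did so was not counted. For 29.1% of all genes every TdTomato+ library was above every TdTomato− library, and for 32.4% below, so agreement between mice was common. In sorted populations of mixed cells, fewer cells of a type and less RNA per cell cannot be told apart.

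**Figure D1:**
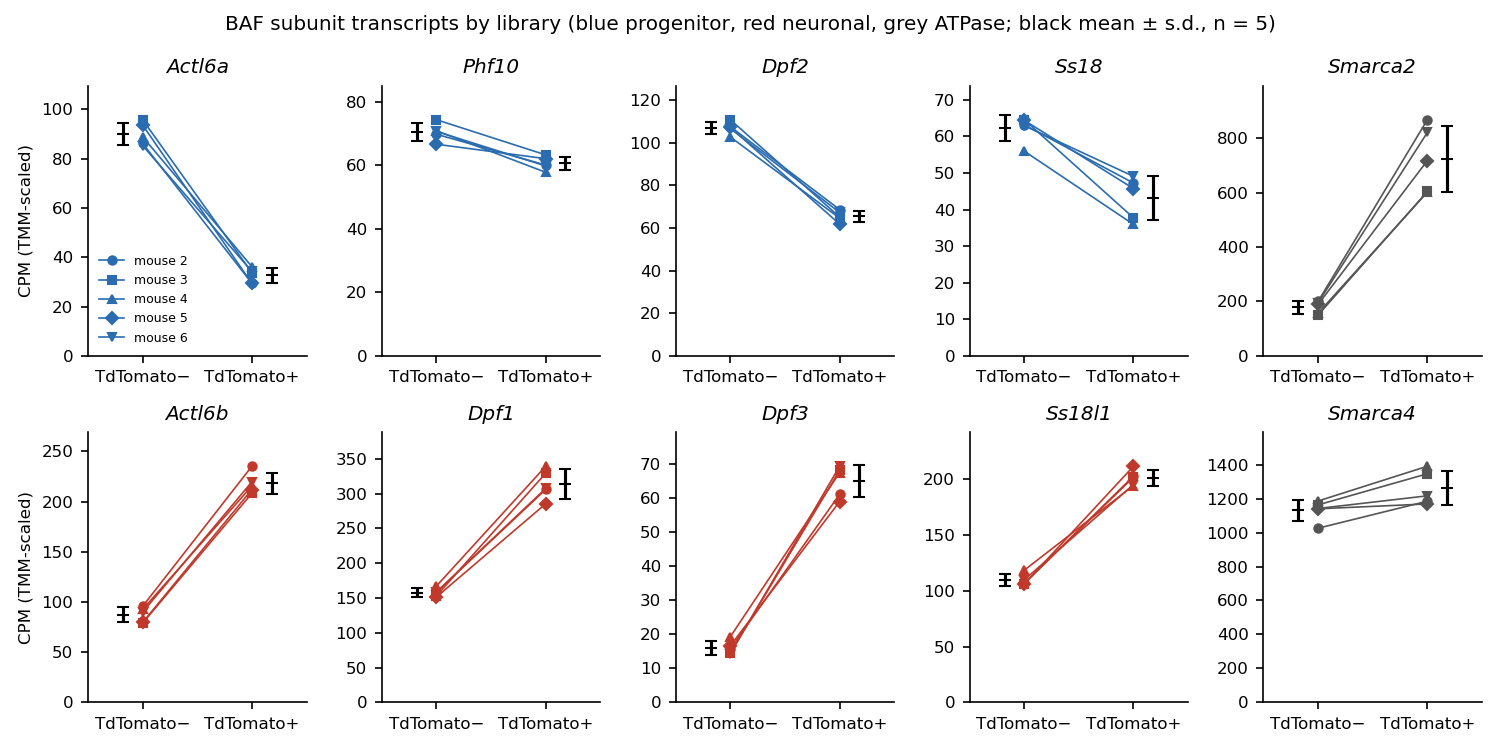
Normalised level (CPM, TMM-scaled, linear y axis from 0) of the 10 members in each library, with both libraries of a mouse joined by a line and the mean and s.d. of 5 libraries in black. The lines of *Actl6a*, *Phf10*, *Dpf2* and *Ss18* fall in all 5 mice, those of *Actl6b*, *Dpf1*, *Dpf3*, *Ss18l1* and *Smarca2* rise in all 5, and *Smarca4* lies between 1026 and 1390.4 CPM in both populations.

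Levels are given as CPM, the reads of a gene as parts of the TMM-scaled library total. The populations differed in cell make-up, and these values moved with the members. Summed over 11 markers of radial glia and intermediate progenitors, TdTomato− libraries held 2139 to 2579 CPM and TdTomato+ libraries 158 to 223, and all 11 were lower in TdTomato+ cells. For 7 proliferation genes the ranges were 1654 to 1972 and 72.0 to 105 CPM, with 7 of 7 lower, and for 6 interneuron genes 1256 to 1638 and 41.1 to 62.0 CPM, with 6 of 6 lower. The 8 neuronal markers listed for excitatory neurons were all higher, at 13004 to 14417 CPM against 5582 to 6647. Neuronal transcripts were thus present in TdTomato− cells too. Among the 8, *Tubb3*, *Dcx*, *Map2* and *Stmn2* are expressed by neurons in general, so this sum is not particular to excitatory neurons. Microglial (3 of 4 markers in the table), erythroid (4 of 4), endothelial (2 of 4) and meningeal or pericyte markers (4 of 7) summed to at most 133 CPM in any library, and to 0.589 to 1.22, 0.363 to 23.0, 0.678 to 1.91 and 1.59 to 2.63 CPM in TdTomato+ libraries. In TdTomato− libraries the same 4 lists gave 9.43 to 44.0, 38.6 to 133, 2.05 to 3.62 and 12.2 to 16.0 CPM. The part of this make-up in the members' differences was not tested.

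*Actl6a*, the actin-related subunit of progenitor BAF, which is also found in the INO80 and TIP60 complexes, fell the most of the progenitor subunits. Its CPM in mice 2 to 6 was 86.2, 95.8, 88.9, 93.6 and 85.3 in TdTomato− cells and 29.5, 33.7, 36.2, 29.4 and 34.3 in TdTomato+ cells. The groups lay far apart, and mice 4 and 6 had the highest TdTomato+ levels. The means were 89.9±4.59 and 32.6±3.05 CPM (s.d., n = 5 each), a 2.76-fold fall (log2 fold change −1.47, s.e. 0.06, edgeR adjusted p = 5.9e-08). An antisense gene, *Mrpl47*, overlaps 11.6% of its exonic bases, and since the strand column of the counts is not given in the sources used here, reads in that stretch cannot be told apart.

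*Actl6b*, its neuronal counterpart, changed by a like size in the other direction. It had 95.7, 79.0, 92.6, 79.6 and 89.9 CPM in the TdTomato− libraries of mice 2 to 6 and 235, 208, 216, 212 and 219.7 CPM in the TdTomato+ libraries. Mouse 2 gave the highest level in both populations, and the lowest TdTomato+ library was far above the highest TdTomato− library. The means were 87.3±7.64 and 218±10.4 CPM, a log2 difference in the fit of 1.32 (s.e. 0.04, edgeR adjusted p = 1.1e-08). Within mice the log2 difference lay between 1.22 and 1.41 for *Actl6b*, and between −1.67 and −1.29 for *Actl6a*.

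*Dpf2* and *Phf10*, which encode the plant homeodomain subunits of progenitor complexes, fell by less. *Dpf2* had 108, 111, 103, 107 and 107 CPM in TdTomato− cells and 68.6, 65.1, 64.6, 61.8 and 67.3 CPM in TdTomato+ cells of mice 2 to 6. The groups were well apart and each was tight. In the fit this was −0.71 on the log2 scale (edgeR adjusted p = 5.2e-07, s.e. 0.04). *Phf10*, which is also a subunit of PBAF, had 69.8, 74.4, 70.9, 66.7 and 70.7 CPM in TdTomato− cells and 60.1, 63.3, 57.8, 62.1 and 59.8 CPM in TdTomato+ cells. Here the groups came close, with only a few CPM between the lowest TdTomato− library, of mouse 5, and the highest TdTomato+ library, of mouse 3. The fitted log2 difference was −0.22 (edgeR adjusted p = 0.0017, s.e. 0.04), and −0.39 (adjusted p = 3.6e-05) with no normalization beyond library size, and another gene covers 9.56% of its exons, *1600012H06Rik*.

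*Dpf1* and *Dpf3*, the neuronal plant homeodomain subunits, both rose, from unlike starting levels. *Dpf1* had 158, 153, 167, 152 and 159 CPM in TdTomato− cells and 306, 329.6, 339, 286 and 308 CPM in TdTomato+ cells of mice 2 to 6. The groups did not overlap, and mouse 4 was highest in both. Its log2 rise was 0.99 (edgeR adjusted p = 4.2e-08, s.e. 0.04), just short of 1. *Dpf3* had 15.7, 14.4, 19.3, 16.6 and 14.4 CPM in TdTomato− cells, from 402 to 481 reads a library, and 61.1, 68.1, 67.5, 59.0 and 69.3 CPM in TdTomato+ cells. It was the lowest member in TdTomato− cells and rose by about as much as *Smarca2*, with a wide gap between the groups. Its log2 rise was 2.02 (edgeR adjusted p = 3.8e-08, s.e. 0.08), and 3.2% of all genes were higher by at least 2.

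*Ss18*, which encodes a partner of the ATPase in progenitor complexes, fell by an amount that varied between mice. It had 63.2, 64.6, 56.0, 64.4 and 62.9 CPM in TdTomato− cells and 47.2, 37.7, 35.9, 45.7 and 49.1 CPM in TdTomato+ cells of mice 2 to 6. Mouse 4 was lowest in both populations, and the groups did not overlap. Over all mice it fell by 0.54 on the log2 scale (edgeR adjusted p = 6.0e-05, s.e. 0.07), with within-mouse differences from −0.77 in mouse 3 to −0.36 in mouse 6. *Ss18l1*, which encodes the calcium-responsive transactivator CREST that supports dendrite growth, had 107, 107, 119, 106 and 109.9 CPM in TdTomato− cells and 203, 202, 195, 212 and 195 CPM in TdTomato+ cells. All 5 TdTomato+ libraries were well above all 5 TdTomato− libraries. Its log2 rise was 0.88 (edgeR adjusted p = 2.6e-07, s.e. 0.05).

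The ATPases SMARCA4 (BRG1) and SMARCA2 (BRM) are alternative motors of the complex, and both are known in neural cells. *Smarca2* had 200.4, 150.3, 157, 189 and 196 CPM in TdTomato− cells and 868, 604, 602, 718 and 821 CPM in TdTomato+ cells of mice 2 to 6. Mice 3 and 4 gave the lowest levels in both populations, and mice 2 and 6 the highest. The fitted log2 rise was 2.01 (edgeR adjusted p = 1.8e-09, s.e. 0.04), with within-mouse differences from 1.92 to 2.11. *Smarca4* had 1026, 1163, 1186, 1139.8 and 1142 CPM in TdTomato− cells and 1185, 1346, 1390.4, 1168 and 1216 CPM in TdTomato+ cells. It was the only member whose groups overlapped, and mice 3 and 4, lowest for *Smarca2*, were the highest for *Smarca4* in both populations. The fitted log2 difference was 0.16 (edgeR adjusted p = 0.0081, s.e. 0.04), and with no normalization beyond library size it was −0.022 (adjusted p = 0.63), so its direction depends on the scaling. All 4 neuronal subunits and *Smarca2* had every TdTomato+ library above every TdTomato− library, where 29.1% of all genes did, and *Smarca4* did not. All 4 progenitor subunits had every TdTomato+ library below, where 32.4% of all genes did. Both shares are over all genes, whether they rose or fell.

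**Figure D2:**
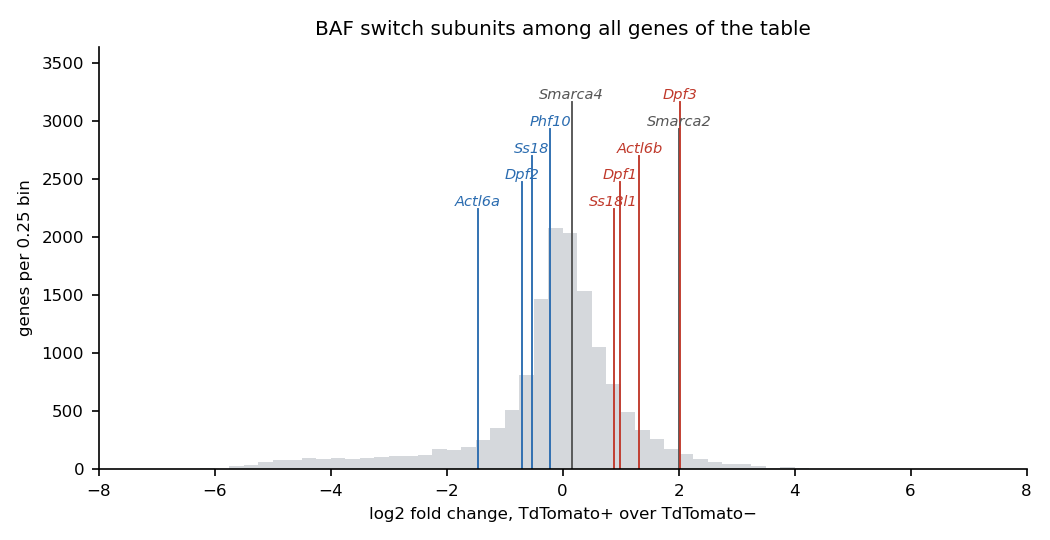
Distribution of log2 fold change (TdTomato+ over TdTomato−, x axis) over the 14300 genes (y axis, number of genes), with a line at each member. The members stand between −1.47 for *Actl6a* and 2.02 for *Dpf3*, within the range of the other genes.

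**Figure D3:**
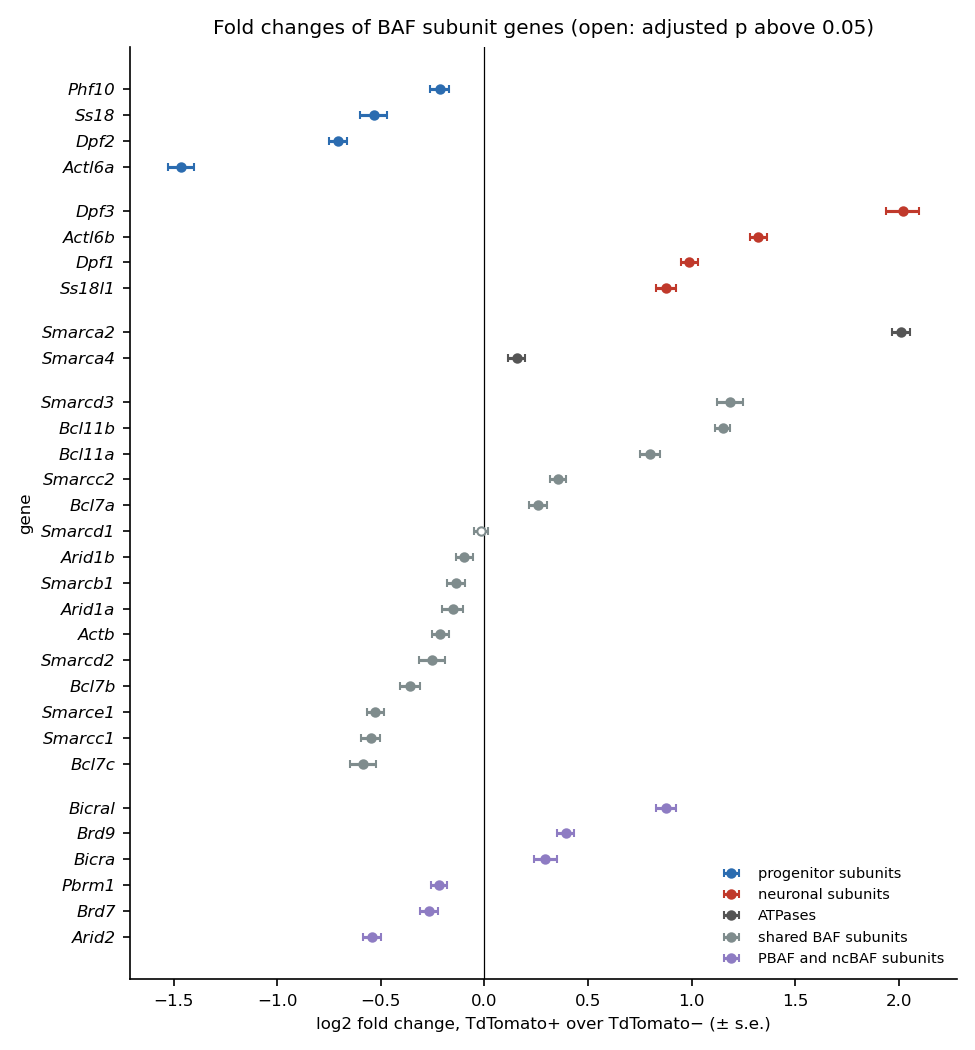
Log2 fold change of members and of the other BAF subunits, with its s.e. as a bar. The 4 progenitor subunits lie below 0 and the 4 neuronal subunits above it, and *Smarca2* at 2.01 stands far above *Smarca4* at 0.16.

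The exchange was read at the level of transcripts only, and the subunits held in assembled complexes were not measured. The ratio of the neuronal to the progenitor subunit was formed within each library, and of *Smarca2* to *Smarca4* for the ATPases. Ratios are per kilobase of exonic length, since genes of unlike length cannot be compared otherwise. The log2 ratio of *Actl6b* to *Actl6a* was −0.18 on average in TdTomato− cells and 2.61 in TdTomato+ cells, that is from 0.883 to 6.10 on the linear scale. The difference within mice was 2.79±0.23 (s.d., n = 5 mice). Of the 7 ratios formed it had the largest mean change, by less than the s.d. over *Dpf3* to *Dpf2* at 2.73±0.23, with *Dpf3* to *Phf10* next at 2.24±0.25. *Dpf1* to *Dpf2* changed by 1.70±0.11, *Ss18l1* to *Ss18* by 1.41±0.19 and *Dpf1* to *Phf10* by 1.21±0.13. The ratio of *Smarca2* to *Smarca4* changed by 1.86±0.10 and stayed below 1 in TdTomato+ cells, at 0.258 against 0.0712. All 7 rose in 5 of 5 mice. The exact two-sided sign-flip permutation test gave p = 0.0625 for each, and 0.0625 after Benjamini-Hochberg adjustment over 7 ratios, which is the smallest value that 5 pairs can give.

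**Figure D4:**
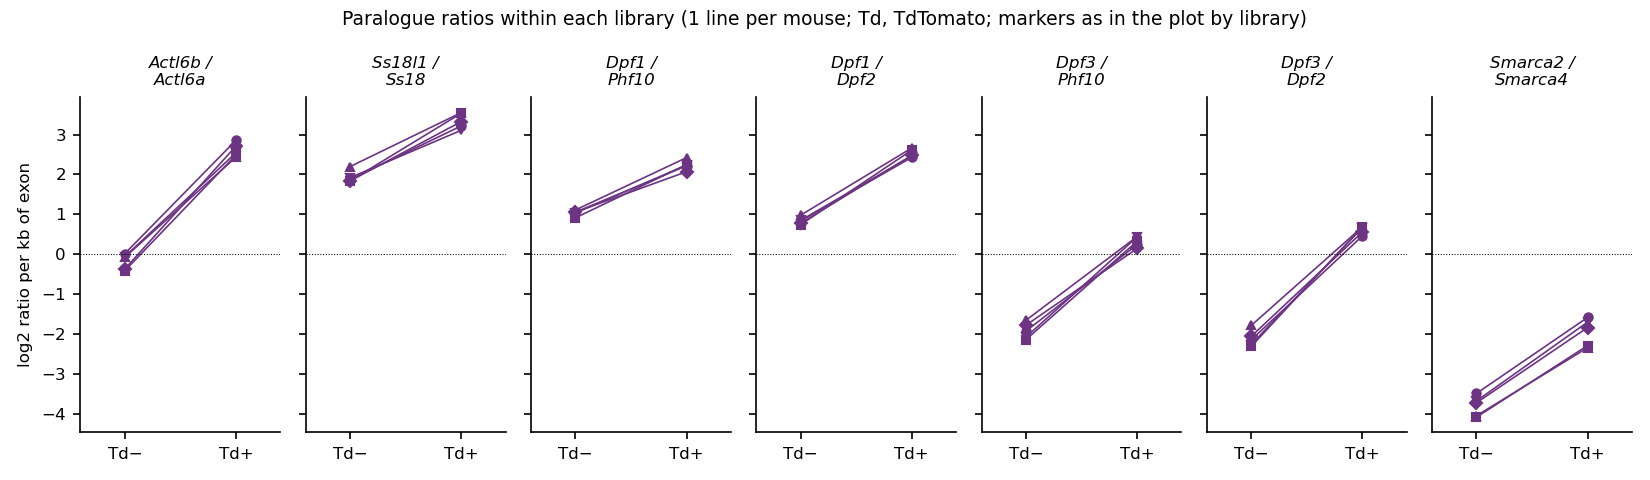
Log2 ratio per kilobase of exonic length (y axis) in each library for 7 pairs, of which 6 set a neuronal over a progenitor subunit and 1 sets *Smarca2* over *Smarca4*. The log2 ratio of *Actl6b* to *Actl6a* moves from around 0 to 2.61 on average, and *Smarca2* to *Smarca4* remains below 0 in all 10 libraries.

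Shares within each family put the same values on a common scale, as TPM, reads per kilobase of exonic length scaled to a common total. *Actl6a* made 53.1±3.38% of the ACTL6 total in TdTomato− cells and 14.1±1.44% in TdTomato+ cells. *Ss18* made 20.8±1.67% and 8.98±1.10% of the SS18 total, so *Ss18l1* was already the larger part in TdTomato− cells. In the PHF10 and DPF family, *Dpf1* rose from 45.9% to 60.6% and *Dpf3* from 5.95% to 16.0%, while *Dpf2* went from 25.7% to 10.5% and *Phf10* from 22.4% to 12.9%. *Smarca4* kept the larger share of the ATPases, 93.3±1.10% and 79.3±3.86%. These levels depend on the length used. With the longest transcript in place of all exonic bases, *Smarca2* (14269 exonic bases, longest transcript 5921) had 14.6% and 38.1% of the ATPase total, and *Ss18* 37.3% and 18.3% of the SS18 total.

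**Figure D5:**
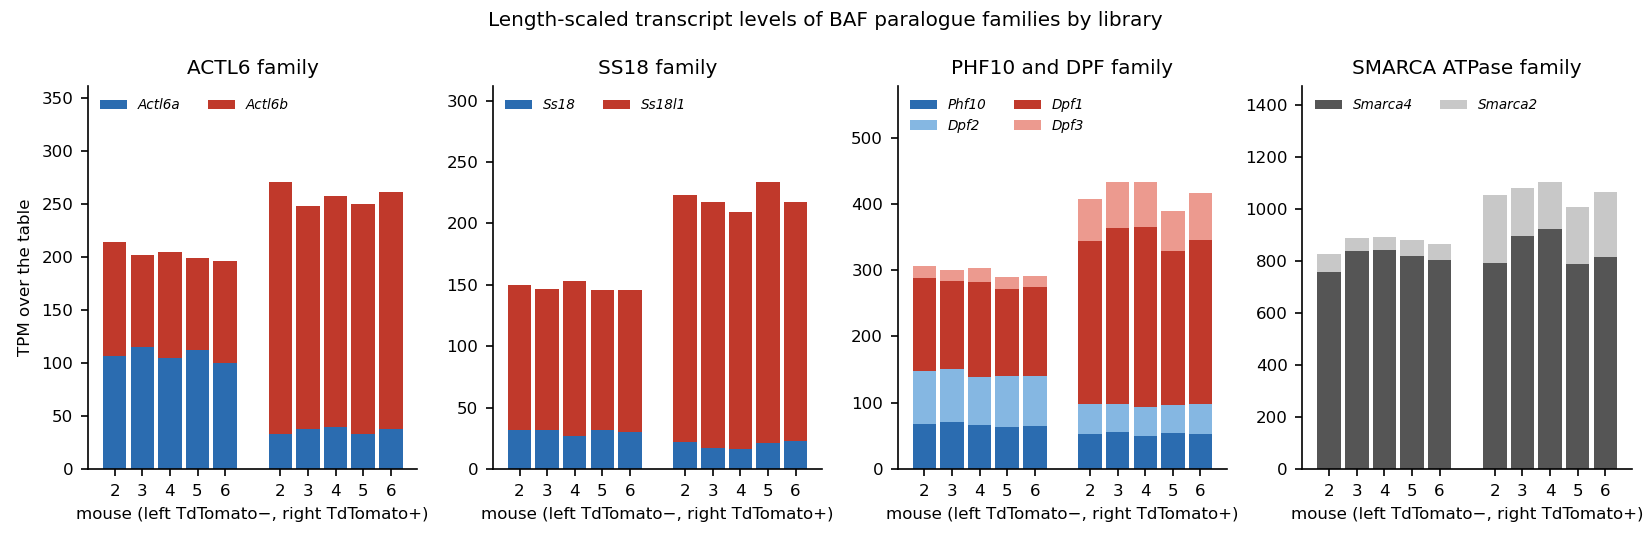
Stacked TPM (y axis, from exonic length) of the genes of each family in each library (x axis, mice 2 to 6, TdTomato− left and TdTomato+ right). On average *Actl6b* goes from 46.9% to 85.9% of the ACTL6 stack and *Smarca2* from 6.72% to 20.7% of the ATPase total.

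The total of each family was also higher in TdTomato+ cells. The summed TPM was 203±6.77 and 257±9.36 for ACTL6, 148±3.07 and 220.4±9.21 for SS18, 298±7.57 and 416±18.5 for PHF10 and DPF, and 871±26.7 and 1061±36.1 for the ATPases, in TdTomato− and TdTomato+ cells. The within-mouse log2 change of the sum was 0.34±0.04, 0.57±0.08, 0.48±0.06 and 0.28±0.06. With the longest transcript in place of exonic length, a choice made after the data had been seen, it was 0.15±0.05, 0.39±0.07, 0.45±0.06 and 0.52±0.07, so each total was higher in 5 of 5 mice under both lengths, while the order of the families by size of change was not kept. By TPM from exonic length, *Smarca4* was the most abundant member in both populations (813 and 842). *Dpf1* followed in TdTomato− cells at 137, then *Ss18l1* (117), *Actl6a* (108), *Actl6b* (95.3), *Dpf2* (76.6), *Phf10* (66.8), *Smarca2* (58.3), *Ss18* (30.8) and *Dpf3* (17.7). The libraries of *Ss18l1* and *Actl6a*, of *Actl6a* and *Actl6b*, and of *Phf10* and *Smarca2* overlapped, so these neighbours were not separated by their spread. In TdTomato+ cells *Dpf1* (252), *Actl6b* (221), *Smarca2* (219) and *Ss18l1* (201) followed *Smarca4*, each overlapping the next in the list from *Dpf1* on. *Dpf3* (66.5), *Phf10* (53.4), *Dpf2* (43.6), *Actl6a* (36.3) and *Ss18* (19.8) came last, with no overlap between neighbours. The order depends on the length used. With the longest transcript *Smarca4* still came first in both populations, but *Smarca2* was at rank 5 in TdTomato− cells (106) and at rank 2 in TdTomato+ cells (400.3), *Ss18l1* was at rank 7 in TdTomato− cells (88.8), and *Actl6a* (53.2) came just above *Phf10* (51.0) in TdTomato+ cells, with overlapping libraries.

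The rest of the complex showed no single direction. Of 15 subunits shared by BAF complexes or tied to them, 5 were higher, 9 lower and 1 not called, with a median log2 fold change of −0.14. Beside these counts stand the 37.9% of all genes that were higher and the 39.4% that were lower, and whether this list or those that follow depart from these shares was not tested. *Smarcd3* (1.19), a BAF60 subunit of which 48.2% of the exonic bases overlap other genes, and *Bcl11b* (1.15), a transcription factor of deep-layer neurons, rose the most. *Bcl7c* (−0.59) and the core scaffold *Smarcc1* (−0.55) fell the most, and *Smarcd1* was at −0.02 (adjusted p = 0.68), or −0.19 (adjusted p = 5.3e-04) with no normalization beyond library size. Small falls were less firm: *Arid1a* (−0.15) lost its call without mouse 2, 3, 5 or 6 (−0.16 to −0.12), *Arid1b* (−0.10) without any 1 of the mice (−0.11 to −0.07) and *Smarcb1* (−0.14) without mouse 5 (−0.12) or 6 (−0.10). *Arid1b* was also not called with RLE normalization (adjusted p = 0.066), with DESeq2 (adjusted p = 0.13) or without the block (adjusted p = 0.090). With no normalization beyond library size *Arid1a* (−0.33), *Arid1b* (−0.27) and *Smarcb1* (−0.31) were all called lower. In that setting *Bcl7a* (0.26 in the main fit) was no longer called higher (0.083, edgeR adjusted p = 0.11). Of 6 subunits of PBAF or ncBAF, 3 were higher, led by *Bicral* (0.88, 11.3% of its exonic bases shared with other genes) and *Brd9* (0.39). The other 3 were lower, led by *Arid2* (−0.54) and *Brd7* (−0.27). With no normalization beyond library size *Brd9* was at 0.21 and *Brd7* at −0.44, and *Bicra* (0.29 in the main fit) was at 0.12 and no longer called.

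Other remodelling complexes were counted in the same way, against the same 37.9% higher and 39.4% lower among all genes. Of 20 genes of NuRD and the CHD family, 5 were higher, 13 lower and 2 not called (median −0.41), with *Chd3* (0.63) and *Mta3* (0.56) rising the most and *Chd7* (−3.81) and *Hdac1* (−1.45) falling the most, and *Hdac2* (0.03) and *Chd8* (0.05) not called. Of 11 ISWI genes, 1 was higher (*Smarca1*, 0.85) and 8 lower (median −0.78), led by *Baz2b* (−1.52) and *Baz1a* (−1.41), and *Baz2a* and *Rsf1* were not called. Of 24 genes of INO80, SRCAP and TIP60, the complexes that share *Actl6a*, 3 were higher, led by *Actr6* (0.46) and *Epc1* (0.17), 16 lower, led by *Actr5* (−0.89) and *Ruvbl2* (−0.80), and 5 not called (median −0.24). None of these 24 changed by as much as *Actl6a*. The rise of *Epc1* is no larger than the shift of the all-gene median with no normalization beyond library size (−0.18).

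The regulators of the exchange that the table holds did not all move together. The level of *Rest* was 26.3±3.32 CPM for TdTomato− libraries against 33.2±2.52 CPM for TdTomato+ libraries, with overlapping groups and a log2 rise of 0.34 (edgeR adjusted p = 5.4e-04, s.e. 0.06). Of 12 genes of REST and its corepressors 2 were higher, *Rest* and *Sin3b* (0.20), and 7 lower, led by the phosphatase *Ctdsp1* (−3.48) and by *Hdac1* (−1.45, also in the NuRD list), and 3 were not called, where 37.9% of all genes were higher and 39.4% lower. The rise of *Sin3b* is close in size to the shift of the all-gene median with no normalization beyond library size (−0.18). The table held 5 genes that span or overlap a miR-124 or miR-9 hairpin. *Mir124a-1hg* (0.78), *Mir124-2hg* (0.51) and *C130071C03Rik* (0.37, 24.7% of its exonic bases shared with other genes), which spans the second miR-9 hairpin, were higher. *Mir9-3hg*, which spans the third, was lower (−1.52), and *Gm27032* was not called (−0.17, adjusted p = 0.25). Host transcripts are not a measure of the mature miRNA.

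The genes with profiles most like *Actl6a* over the 10 libraries, by the root mean square difference of log2 CPM centred on each gene's mean, were *Hdac1* (0.059), *Igfbp4* (0.065) and *Baz2b* (0.076). Those most like *Actl6b* were *Camkk2* (0.049), *Agtpbp1* (0.051) and *Kif5a* (0.052).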

How the data were processed

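Polyadenylated RNA of live TdTomato+ and TdTomato− cells sorted from each of 5 mouse numbers was sequenced. The authors trimmed reads with Trim Galore at a Phred score of 28, aligned them with STAR (2.4.2a per the submitters' processing notes) to GRCm38 with at most 1 mismatch, kept unique reads and deposited raw counts per gene. The labels and the methods differ in library kit, RNA input, sequencer and read length, and the annotation release and strand column were not given in the sources used here.

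Counts of 10 libraries were fitted with edgeR 4.0.16 in R 4.3.3 (filterByExpr, which removed 0 genes, TMM, glmQLFit, glmQLFTest, mouse as a block, prior count 0.125), with Benjamini-Hochberg adjustment over 14300 genes and a threshold of 0.05. An s.e. is the log2 fold change divided by the square root of F. Log2 CPM used a prior count of 2 and ratios an offset of 0.5 counts. The TMM factor of a library was 0.93 to 0.95 for TdTomato+ and 1.06 to 1.07 for TdTomato− cells. At these depths the members had 402 to 33652 reads a library. The mouse number was taken to pair libraries: deviations from group means correlated by 0.186 to 0.316 across genes within a number and by −0.312 to 0.212 between numbers. These ranges overlap, with 0.212 between TdTomato− of mouse 4 and TdTomato+ of mouse 3 and 0.186 within mouse 5. Where nothing says that the numbers are separate litters, p-values measure the spread between these samples.

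Members and lists were chosen with earlier results of these data known. Besides all members, the text names the 2 genes of each list with the largest rise and the 2 with the largest fall among those called, those not called where they were 2 or fewer, and the 3 genes most like *Actl6a* and *Actl6b*. *Arid1a*, *Arid1b*, *Smarcb1*, *Bcl7a* and *Bicra* were named after their values were seen. The markers *Tubb3*, *Dcx*, *Map2* and *Stmn2* are named because neurons in general express them. Symbols, lengths and overlaps came from the GENCODE annotation of GRCm38 (14271 of 14300 identifiers had a symbol). Alternatives were RLE, upper-quartile and no normalization, DESeq2 1.42.0, other count filters, no block, robust estimation, TREAT against a log2 fold change of 1, other lengths and offsets, and each mouse left out.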

Additional observations from a re-analysis of the deposited data

Results flagged for a closer look

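In 3 of 34 groups of 5 libraries examined, 1 library stood apart from the other 4 (chance alone flags about 1 in 20 groups, or 1.7 here). The measure is the gap from the extreme library to its nearest neighbour divided by the whole range of the group. For *Ss18* log2 CPM in TdTomato− cells the library of mouse 4 was lowest, with a gap of 0.821 of the range. The log2 ratio of *Ss18l1* to *Ss18* in TdTomato− cells was highest in the same library, with a gap of 0.771, and both values share the *Ss18* count. For *Smarca4* log2 CPM in TdTomato− cells the library of mouse 2 was lowest, with a gap of 0.728.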

How the results depend on the processing

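With no normalization beyond library size, *Smarca4* was at −0.022 (adjusted p = 0.63), so 1 of the 2 ATPases was higher, the median of all genes moved by −0.18, and 36.6% of called genes were higher in place of 49.1%. The other 9 members kept direction and call, with *Phf10* at −0.39 (adjusted p = 3.6e-05). Against a log2 fold change of 1 (TREAT), *Phf10* (−0.22), *Dpf2* (−0.71), *Ss18* (−0.54), *Dpf1* (0.99), *Ss18l1* (0.88) and *Smarca4* (0.16) were no longer called, and 3193 genes were called in place of 11056. Without the replicate block no member's call changed. The paralogue ratios have the same differences as group means without the pairing, 2.79 for *Actl6b* to *Actl6a*, 1.41 for *Ss18l1* to *Ss18*, 1.21 for *Dpf1* to *Phf10*, 1.70 for *Dpf1* to *Dpf2*, 2.24 for *Dpf3* to *Phf10*, 2.73 for *Dpf3* to *Dpf2* and 1.86 for *Smarca2* to *Smarca4*, and the exact permutation test then gave p = 0.00794 for each, the smallest it can give. Leaving out each mouse in turn, no member lost its call, and the log2 fold changes were −1.51 to −1.42 for *Actl6a*, 1.30 to 1.35 for *Actl6b*, −0.57 to −0.48 for *Ss18* and 0.14 to 0.19 for *Smarca4*. The count of neuronal subunits higher by at least 1 was 2 to 3, since *Dpf1* lies at the threshold. Of the other BAF, PBAF and ncBAF subunits, 9 to 11 were lower with a mouse left out in place of 12, and 8 were higher each time. With no normalization beyond library size 13 were lower, *Smarcd1* (−0.19, adjusted p = 5.3e-04) being added, and 6 were higher, *Bcl7a* (0.083, adjusted p = 0.11) and *Bicra* (0.12, adjusted p = 0.088) losing their calls. RLE and upper-quartile normalization, DESeq2, the count filters and robust estimation changed no member's call. Members had 402 reads or more in every library.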
